A study of Homo sapiens with 4 samples.

Results

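The mitochondrial ribosomal protein genes were taken as every listed gene whose symbol begins with MRPL or MRPS followed by a digit. This rule gave 77 of the 16370 genes listed for either parental line, and all 77 were listed in all 4 libraries. They comprised 76 protein-coding genes and 1 pseudogene, MRPL42P5, a copy of MRPL42. RNA was sequenced from 4 human hepatoma cultures, with 1 library each. The hepatocellular carcinoma (HCC) group was made up of Hep3B and Huh7, which are established human liver cancer lines. The hepatic cancer stem cell (HCSC) group was made up of Hep3B-C and Huh7-C, cultures that the study enriched for stem-like cells from those lines. No drug, dose, time point or genetic change was given in the labels. Each HCSC culture is a derivative of 1 line, so each group held 2 samples from 2 different parental lines and no line had a replicate. The question of the design was which genes differ between HCSC and HCC.

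Mitochondria carry their own ribosome, which translates the few messenger RNAs encoded in mitochondrial DNA into core subunits of the respiratory chain and ATP synthase. Its RNA comes from the mitochondrial genome, but all of its proteins are encoded in the nucleus, made in the cytosol and imported. Many of these proteins descend from bacterial ribosomal proteins, while others are found only in mitochondria. Genes named MRPL mostly encode proteins of the large subunit, which forms peptide bonds. Genes named MRPS mostly encode proteins of the small subunit, which decodes the messenger. Names do not always follow structure, since MRPS18A and MRPS30 lie in the large subunit and MRPS36 belongs to the 2-oxoglutarate dehydrogenase complex. Hepatocytes are rich in mitochondria, and many tumours change how much they rely on them.

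Total gene counts were 2896418 in Hep3B, the lowest, and between 4333808 and 4641927 in the others. The study reported more total reads for Hep3B than for any other library, so its low gene count is not a low number of reads. The cause of that difference was not tested. Levels are given as CPM, in which counts are scaled so that every library has the same total. A gene with 3 counts stood at 0.646 to 1.04 CPM, the lowest level taken as measurable. All 12 hepatocyte lineage genes examined were listed in both pairs, and their summed level was 62130 CPM in Hep3B, 72430 CPM in Hep3B-C, 51540 CPM in Huh7 and 27370 CPM in Huh7-C. Of 12 markers of fibroblasts, endothelium and blood cells, 6 were listed in the Hep3B pair and 7 in the Huh7 pair, with summed levels of 115 to 283 CPM that came mainly from CD68. Of the 6 listed in the Hep3B pair, 1 was called higher and 1 lower in Hep3B-C. In the Huh7 pair PDGFRB went from 186 counts in Huh7 to 2 in Huh7-C and was called lower, while PECAM1 went from 17 to 93 and COL3A1 from 0 to 58 and both were called higher. Markers not listed in a pair had no count in either of its libraries. Of the 12 hepatocyte genes, 5 were called higher and 3 lower in Hep3B-C, and 1 higher and 4 lower in Huh7-C. Of them, 3 were called higher in Hep3B-C and lower in Huh7-C. Only TF (transferrin) was called in the same direction in both pairs, lower in both HCSC lines. TF had 20900 and 15535 counts in Hep3B and Hep3B-C and 7019 and 1384 counts in Huh7 and Huh7-C. The part of these markers in the results was not tested. In bulk RNA, fewer cells of a type and less RNA per cell cannot be told apart.

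The Hep3B library stood apart from the other libraries in the levels of these genes. Across the 77 genes, the Pearson correlation of log2(CPM + 1) was 0.61 to 0.66 between Hep3B and each other library, and 0.82 to 0.96 among the other libraries. These points share a library and its base composition, so the correlation is a description. Over all genes Hep3B stood less apart. There the correlation was 0.86 between Hep3B and Hep3B-C, as between Hep3B-C and Huh7-C, while Hep3B had 0.78 with Huh7 and 0.79 with Huh7-C. Hep3B was the reference of the Hep3B-C comparison, and values with Huh7 in its place are therefore given beside the results.

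Together the 77 genes made up 0.331% and 0.592% of all counts in Hep3B and Hep3B-C, and 0.562% and 0.554% in Huh7 and Huh7-C. The exact (Clopper-Pearson) 95% intervals, which cover counting error only, were 0.324% to 0.337%, 0.585% to 0.599%, 0.555% to 0.569% and 0.547% to 0.561% in the same order. Hep3B alone lay low, and the interval of Huh7 overlapped that of Huh7-C. The median gene stood at 36.6, 50.8, 58.6 and 54.5 CPM in Hep3B, Hep3B-C, Huh7 and Huh7-C. Hep3B held the lowest level of 46 genes, Hep3B-C of 20, Huh7 of 5 and Huh7-C of 6. The highest level was in Huh7 for 30 genes, in Hep3B-C for 24, in Huh7-C for 12 and in Hep3B for 11.

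**Figure D1:**
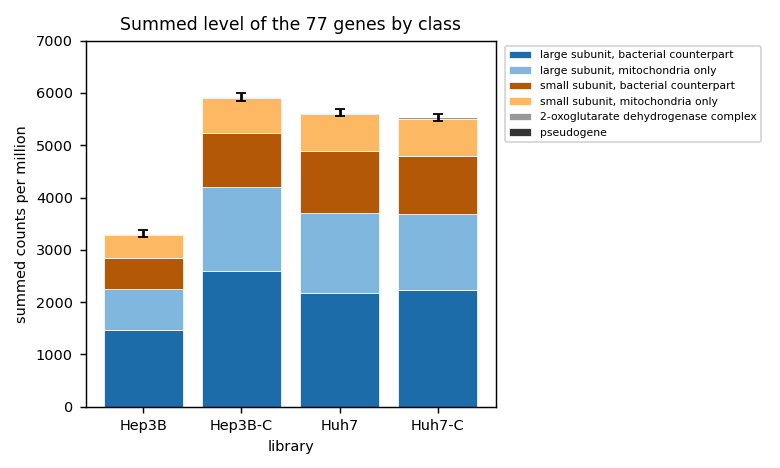
Summed CPM of the 77 genes (vertical axis, from 0) in each library (horizontal axis), stacked by class of protein. Black bars are exact 95% intervals of the whole sum from counting error only, and there was 1 library per line. Hep3B reached 3305 CPM and the other libraries between 5537 and 5924 CPM.

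To compare genes with each other, counts were also scaled by gene length (RPKM, the CPM divided by the gene length in kilobases). On this scale the median gene stood at 30.4 and 41.0 RPKM in Hep3B and Hep3B-C and at 48.5 and 46.2 RPKM in Huh7 and Huh7-C. The highest mean level over the 4 libraries was that of MRPL37, a large subunit protein without a bacterial counterpart, at 75.4, 244, 169 and 215 RPKM in that order of libraries. MRPL20, MRPL28 and MRPL11 of the large subunit and MRPS24 of the small subunit followed, with means of 162.8, 160, 158 and 155 RPKM. Those 5 means lay within a range that was small beside the spread of any of them over the libraries, so their order was not resolved. MRPL11, which lies at the base of the stalk where translation factors bind, stood at 115, 273, 105 and 140 RPKM. MRPL20 stood at 53.2, 208, 205 and 185 RPKM, low in Hep3B only. MRPS24 was also lowest in Hep3B, with 51.6, 168, 211 and 191 RPKM.

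The least abundant protein-coding genes were MRPL19, MRPL1 and MRPL35, with mean levels of 7.44, 7.93 and 8.07 RPKM, all large subunit proteins with a bacterial counterpart. MRPL1 stood at 7.62, 5.23, 10.4 and 8.49 RPKM, with 30 to 64 counts in a library. MRPL35 stood at 7.40, 4.94, 9.25 and 10.7 RPKM. These means differed by less than their spread over the libraries.

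**Figure D2:**
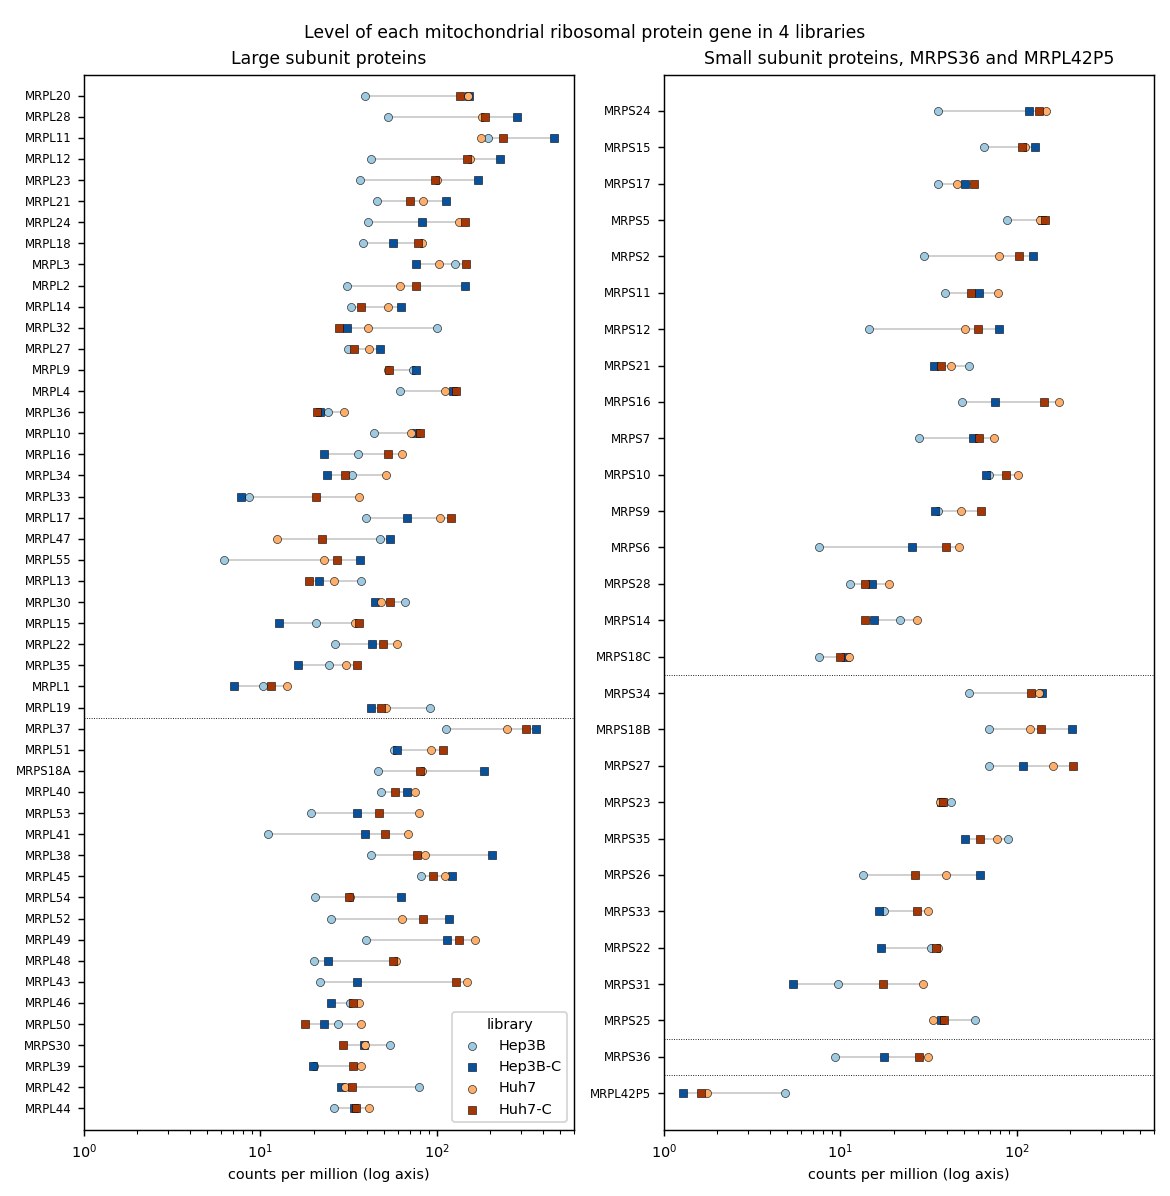
Level of each gene in CPM (horizontal log axis) in the 4 libraries, with 1 point per library and a line from the lowest to the highest. Dotted lines part proteins with a bacterial counterpart (above) from proteins of mitochondria only (below), MRPS36 and MRPL42P5, and genes are ordered by mean RPKM within a class. The Hep3B point is the lowest of the 4 for 46 genes.

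The first pair asked which of these genes differed between Hep3B-C and its parent Hep3B. Calls were made with the test of Audic and Claverie, which asks whether a pair of Poisson counts could come from equal levels. A call needed a false discovery rate (FDR) no higher than 0.01 and a log2 fold-change of 1 or more in either direction. The test compares the 2 libraries and covers counting error only, so no call has a replicate check. In Hep3B-C, 24 of the 77 genes were called higher and 4 lower. Among all listed genes 13.2% were called higher and 30.4% lower. The median log2 fold-change was 0.59 for the 77 genes and -0.60 for all genes with at least 10 counts. Fold-changes of the 77 genes ranged from -1.84 to 2.53, with 49 above 0 and 28 below. With the FDR alone and no limit on the fold-change, 42 genes were higher and 13 lower, against 19.1% and 37.9% of all genes. On the TMM scale, which moved every gene of the pair by 0.60, 43 genes were called higher and 1 lower, with a median of 1.18, against 21.6% and 18.1% of all genes.

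The largest rises were in MRPL55, MRPS12, MRPL28, MRPL12 and MRPL38. MRPL55, a protein of the large subunit, stood at 7.18 and 42.6 RPKM in Hep3B and Hep3B-C and at 26.5 and 31.2 RPKM in Huh7 and Huh7-C. Its log2 fold-change in Hep3B-C was 2.53 ± 0.35 (counting SE), from 18 counts in Hep3B. MRPS12, the counterpart of the bacterial protein that takes part in decoding accuracy, stood at 14.5, 78.9, 50.5 and 60.0 CPM in the same order. Hep3B was the low sample for both genes, and the other libraries lay closer to each other than to Hep3B. The log2 fold-change of MRPS12 in Hep3B-C was 2.43 ± 0.23.

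MRPL28 stood at 52.8, 284, 180 and 187 CPM, with a log2 fold-change of 2.42 ± 0.12 in Hep3B-C. MRPL12 is the counterpart of the bacterial stalk protein L7/L12, which recruits translation factors. It stood at 42.5, 226, 154 and 149 CPM and had a log2 fold-change of 2.41 ± 0.14. MRPL38, of the large subunit and of mitochondria only, stood at 42.5, 206, 85.1 and 77.3 CPM, with a log2 fold-change of 2.27 ± 0.14. Hep3B was the lowest and Hep3B-C the highest library for these 3 genes.

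The lowest fold-changes among genes with at least 50 counts in a library of the pair were those of MRPL32, MRPL42, MRPL19, MRPS22 and MRPS35. MRPL32, which is matured by a protease of the inner membrane before it joins the large subunit, stood at 101, 30.8, 40.6 and 27.9 CPM. It was high in Hep3B only, and its log2 fold-change in Hep3B-C was -1.70 ± 0.15. MRPL42 stood at 79.4, 28.4, 30.2 and 33.0 CPM, with a log2 fold-change of -1.48 ± 0.16. MRPL19 stood at 90.8, 42.4, 51.6 and 48.2 CPM, with a log2 fold-change of -1.10 ± 0.14. For all 3 genes Hep3B held the highest level and the other libraries lay together.

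MRPS22 and MRPS35, both of the small subunit and of mitochondria only, were not called. MRPS22 stood at 29.2, 15.2, 31.8 and 30.9 RPKM, so that Hep3B-C was its low sample, with a log2 fold-change of -0.94 ± 0.22. MRPS35 stood at 88.7, 50.8, 77.4 and 61.8 CPM, with a log2 fold-change of -0.80 ± 0.13. The pseudogene MRPL42P5 was called lower from 14 counts in Hep3B and 6 in Hep3B-C, with 8 in Huh7 and 7 in Huh7-C. How reads shared with MRPL42 were assigned is not given in the sources used here, so its level is uncertain.

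In the Hep3B pair the fold-change of these genes moved with the GC content of the transcript. Over the 76 genes with a GC value, Pearson's r was 0.73 and Spearman's rho 0.75, and over all genes with at least 10 counts and a GC value they were 0.55 and 0.61. Both are taken over genes of the same 2 libraries and are descriptions, since genes are no independent replicates. The 25 genes of lowest GC content, from 33.5% to 45.6%, had a median log2 fold-change of -0.36, with 0 called higher and 3 lower. The middle 26 genes had a median of 0.61, with 8 called higher and 0 lower. The 25 genes of highest GC content, from 53.9% to 72.0%, had a median of 1.69, with 16 called higher and 0 lower. All genes of the same GC ranges had medians of -1.47, -0.45 and 0.73, so by median the genes lay above all genes in each range. The share of all genes called was not taken by GC range, so these counts of calls cannot be set against it.

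The genes were also short, with a median length of 1122 bases against 2921 for all genes with at least 10 counts in the pair. With the trend of the fold-change on length removed, their median in Hep3B-C became -0.28, against -0.53 for all genes. With the trends on GC content and length removed together it became -0.11, against -0.50 for all genes, and 5 of the 77 genes were called higher and 7 lower. Of all genes, 4.46% were called higher and 23.2% lower in that fit. The 5 genes with the largest rises then stood at 0.36 to 0.53 and were not called, and MRPL19 turned from -1.10 to 0.59, while MRPL32 stayed low at -1.96. The 5 genes called higher after the removal were MRPL2, MRPL22, MRPL52, MRPS6 and MRPS36, of which MRPL2, MRPL22 and MRPS6 were named after their values were seen. With Huh7 in place of Hep3B as the reference of Hep3B-C, 5 genes were called higher and 10 lower, with a median of -0.31. Among all genes 13% and 19.3% were called in that comparison, with a median of -0.17. The median of the list thus changed sign with the trends removed but stayed above that of all genes, and with Huh7 as the reference it lay below that of all genes.

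**Figure D3:**
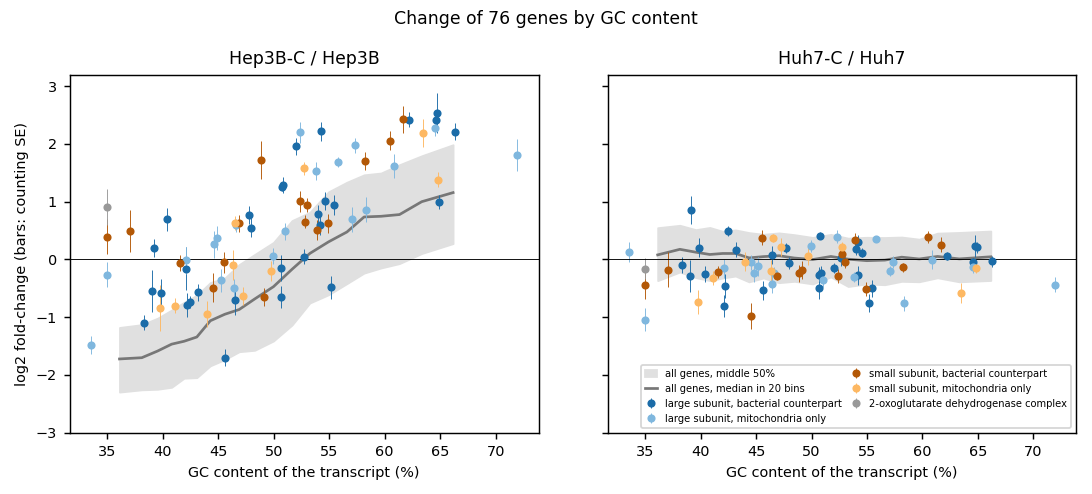
Log2 fold-change (vertical axis) against GC content of the transcript in percent (horizontal axis) for 76 genes in the Hep3B pair (left) and the Huh7 pair (right), coloured by class, with bars of 1 counting SE. The grey line and band are the median and the middle 50% of all genes in bins of GC content. On the left the points climb with GC content (r = 0.73) and on the right they lie about 0 (r = 0.12).

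The second pair asked the same of Huh7-C and its parent Huh7. Only 1 of the 77 genes, MRPL50, was called lower and 0 were called higher, while 4.15% of all listed genes were called lower and 4.19% higher. MRPL50, a large subunit protein of mitochondria only, stood at 27.1 and 22.6 RPKM in Hep3B and Hep3B-C and at 36.5 and 17.6 RPKM in Huh7 and Huh7-C. Huh7 was its high and Huh7-C its low sample, and the log2 fold-change in Huh7-C was -1.04 ± 0.20. The median log2 fold-change of the 77 genes was -0.14, against 0.06 for all genes with at least 10 counts, with 27 above 0 and 50 below. With the FDR alone and no limit on the fold-change, 7 genes were higher and 14 lower, against 15.4% and 12.2% of all genes.

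The other low values in Huh7-C belonged to MRPS14, MRPL33, MRPL34 and MRPL53. MRPS14, of the small subunit and with a bacterial counterpart, stood at 21.7, 15.5, 27.3 and 13.8 CPM in Hep3B, Hep3B-C, Huh7 and Huh7-C, with a log2 fold-change of -0.97 ± 0.23 in Huh7-C. MRPL33 stood at 8.63, 7.75, 36.14 and 20.5 CPM, with a log2 fold-change of -0.81 ± 0.19. It was lower in both Hep3B cultures than in either Huh7 culture. MRPL34 stood at 33.1, 23.7, 51.4 and 30.2 CPM, with a log2 fold-change of -0.76 ± 0.16. For MRPS14, MRPL33 and MRPL34 the highest level was that of Huh7.

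The highest values in Huh7-C belonged to MRPL47, MRPL3, MRPL11, MRPL52 and MRPS2, none of them called in that pair. MRPL47 stood at 47.3, 54.3, 12.3 and 22.4 CPM, so that both Huh7 cultures lay below both Hep3B cultures, with a log2 fold-change of 0.85 ± 0.24 in Huh7-C. It was the only gene called higher when the trends on GC content and length were removed, at 1.07. MRPL52, a large subunit protein of mitochondria only, stood at 25.2, 117, 63.7 and 83.5 CPM. Its log2 fold-change was 0.39 ± 0.11 in Huh7-C and 2.20 ± 0.18 in Hep3B-C. MRPS2, of the small subunit, stood at 29.7, 124, 78.7 and 103 CPM, with log2 fold-changes of 0.39 ± 0.10 in Huh7-C and 2.05 ± 0.17 in Hep3B-C. For both genes Hep3B was the lowest library and Hep3B-C the highest.

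In the Huh7 pair the fold-change moved less with GC content, with a Pearson's r of 0.12 and a Spearman's rho of 0.16 across the 76 genes. With gene length they were 0.30 and 0.29. Removing both trends moved the median from -0.14 to 0.13, with 1 gene called higher and 0 lower, against 2.94% and 4.02% of all genes.

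None of the 77 genes was called in the same direction in both pairs, where 0.568% of the 13917 genes listed in both were called higher and 1.49% lower. By sign alone, 19 genes were above 0 in both pairs and 20 below 0 in both, 30 were above 0 in Hep3B-C and below 0 in Huh7-C, and 8 the reverse. Of the 13917 genes, 2599, 4110, 2374 and 4834 fell in these classes in the same order. With the FDR alone, 5 genes were higher in both HCSC lines, against 5% of all genes, and 1 was lower, against 4.81%. The 5 were MRPL11, MRPL37, MRPL52, MRPS2 and MRPS27, and MRPS27 was named after its values were seen. MRPL37 stood at 112, 361, 250 and 319 CPM, with log2 fold-changes of 1.69 ± 0.09 in Hep3B-C and 0.35 ± 0.06 in Huh7-C. MRPL11 stood at 193, 461, 178 and 236 CPM, with log2 fold-changes of 1.25 ± 0.07 and 0.41 ± 0.07.

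MRPS27, a small subunit protein of mitochondria only, stood at 69.7, 108, 160 and 207 CPM, with log2 fold-changes of 0.63 ± 0.12 and 0.37 ± 0.07. In all 5 genes the HCSC library lay above its parent, but in MRPS27 the Hep3B-C level lay below that of Huh7. The 1 gene lower in both was MRPL32, with log2 fold-changes of -1.70 ± 0.15 and -0.54 ± 0.17.

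With the FDR alone, 8 genes were higher in Hep3B-C and lower in Huh7-C, and 1 gene the reverse, against 3.82% and 8.03% of all genes. MRPL53, a large subunit protein of mitochondria only, was one of the 8. It stood at 19.3, 35.3, 79.6 and 46.8 CPM, with log2 fold-changes of 0.86 ± 0.22 in Hep3B-C and -0.76 ± 0.13 in Huh7-C. With the GC and length trends taken out, its value in Hep3B-C turned to -1.03. MRPL3, which lies near the site of peptide bond formation, was the reverse. It stood at 126, 75.6, 103 and 145 CPM, with log2 fold-changes of -0.74 ± 0.11 and 0.49 ± 0.09. In MRPL53 the 2 HCSC libraries lay between the 2 parents, and in MRPL3 the 2 parents lay between the 2 HCSC libraries.

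**Figure D4:**
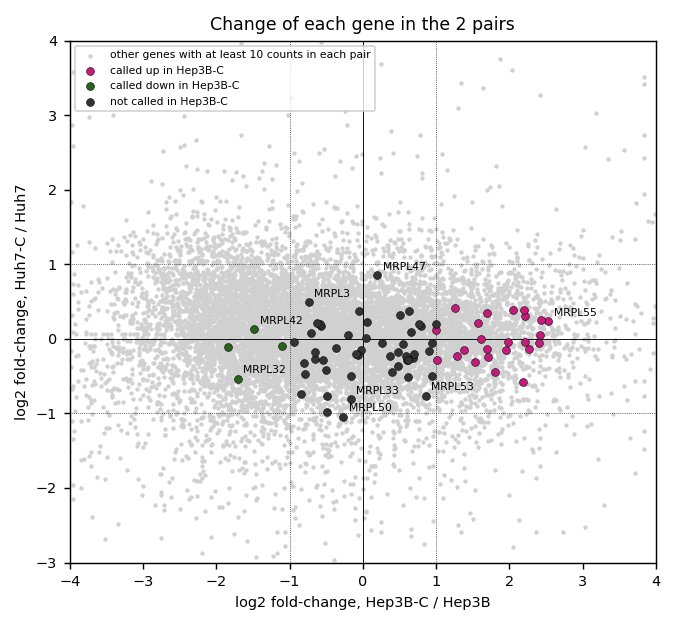
Log2 fold-change in the Hep3B pair (horizontal axis) against that in the Huh7 pair (vertical axis). Coloured points are the 77 genes, grey points are other genes that reached 10 counts in both pairs (those beyond the axes are not drawn), and dotted lines mark a log2 fold-change of 1 and -1. The 24 genes called higher in Hep3B-C lie to the right and spread about 0 on the vertical axis.

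HCSC and HCC were also compared over the 4 libraries with edgeR's quasi-likelihood test, with the parental line as a block and 1 residual degree of freedom. Of 76 genes tested (all but the pseudogene), 0 were called higher and 0 lower at an FDR of 0.05, and 0 had an unadjusted p under 0.05 in either direction, against 1.27% of all genes tested that were higher and 1.91% that were lower. DESeq2 called 0 in either direction as well. Of the 11691 genes tested, 0.0342% were called higher and 0.0428% lower. Adjusted p-values in edgeR were tied at 0.9994 for 74 of the 76 genes, and the lowest unadjusted p in edgeR was 0.11 (MRPS12). The biological coefficient of variation was 0.514. The median log2 fold-change was 0.34 for these genes and -0.06 for all genes tested. It rested on single libraries, since in fits with no block it was -0.13 without Hep3B, 0.98 without Huh7, 0.27 without Hep3B-C and 0.16 without Huh7-C. Each of these fits left 1 library in 1 of the groups, so the effect size alone is given here.

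The parental lines and the HCSC lines were also set side by side, with 1 library each. In Hep3B against Huh7, 3 genes were called higher and 29 lower, with a median log2 ratio of -0.76, while 27.6% of all genes were called higher and 17.6% lower with a median of 0.27. In Hep3B-C against Huh7-C, 4 were called higher and 8 lower, with a median of -0.05, against 11.4% and 19.1% of all genes and a median of -0.23. By count of calls and by median, the HCSC lines were closer to each other in these genes than the parental lines were. Among all genes too, the share called higher was smaller between the HCSC lines, while the share called lower was not. In Hep3B-C against parental Huh7, 5 were called higher and 10 lower, with a median of -0.31, against 13% and 19.3% of all genes. Having few calls was thus not particular to the comparison of the 2 HCSC lines. The log2 ratio moved with GC content, with a Pearson's r of -0.49 between the parental lines, 0.40 between the HCSC lines and 0.39 in Hep3B-C against Huh7. Over all genes these were -0.30, 0.22 and 0.19. With Huh7 as its reference, Hep3B-C was thus not free of a trend on GC content.

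By structural class, the 30 large subunit proteins with a bacterial counterpart had 9 genes called higher and 2 lower in Hep3B-C, with a median log2 fold-change of 0.57. The 19 large subunit proteins of mitochondria only had 7 and 1, with a median of 0.59. The 16 small subunit proteins with a bacterial counterpart had 5 and 0, with a median of 0.62, and the 10 of mitochondria only had 3 and 0, with a median of -0.14. Among all genes 13.2% were called higher and 30.4% lower. After removal of the GC and length trends, the classes had 2 called higher and 4 lower, 1 and 1, 1 and 1, and 0 and 0, in that order. Of all genes, 4.46% were called higher and 23.2% lower in that fit. No class was tested against another. The medians of the 4 classes in Huh7-C lay between -0.18 and -0.04, all below 0.

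Individual proteins with known roles varied within their classes. MRPL45, which lies at the tunnel exit and holds the ribosome to the inner membrane, stood at 81.1, 122, 111 and 94.6 CPM in Hep3B, Hep3B-C, Huh7 and Huh7-C. Its log2 fold-changes were 0.59 ± 0.11 in Hep3B-C and -0.23 ± 0.10 in Huh7-C, and it was not called. MRPS30 stood at 54.2, 38.4, 39.2 and 29.3 CPM, with log2 fold-changes of -0.50 ± 0.16 and -0.42 ± 0.17. It was not called either, and each HCSC library lay below its parent. MRPS36 stood at 9.32, 17.7, 31.3 and 27.9 CPM, with log2 fold-changes of 0.90 ± 0.32 and -0.16 ± 0.18. For MRPS36 both Hep3B cultures lay below both Huh7 cultures.

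MRPS18A, MRPS18B and MRPS18C are related genes whose products take different places in the ribosome. How shared reads were split among them is not given in the sources used here. MRPS18A stood at 46.6, 184, 82.6 and 80.3 CPM and was called higher in Hep3B-C, with a log2 fold-change of 1.98 ± 0.13. MRPS18B stood at 69.1, 206, 118 and 136 CPM and was called higher as well, at 1.57 ± 0.11. MRPS18C, from 22 to 51 counts in a library, stood at 7.60, 10.8, 11.2 and 9.92 CPM and was not called, at 0.49 ± 0.37. Their GC contents were 57.3%, 52.7% and 37.1% in that order, and after removal of the GC and length trends their log2 fold-changes in Hep3B-C were 0.35, 0.64 and 0.85. The order of the 3 values was thus turned by that removal, but with a counting SE of 0.37 for MRPS18C the new order was not resolved.

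Other genes of mitochondrial translation were examined as lists. Genes of these lists other than PPARGC1A were named after their values were seen. Of 7 mitoribosomal proteins with other names, AURKAIP1 and GADD45GIP1 were called higher in Hep3B-C and PTCD3 lower, and 0 were called in Huh7-C. Of 15 translation factors, TUFM, the elongation factor that brings aminoacyl-tRNA to the ribosome, and TACO1, an activator of COX1 translation, were called higher in Hep3B-C. LRPPRC, MTIF3, MTRF1 and MTRF1L were called lower, and 0 of the 15 were called in Huh7-C. The median log2 fold-changes of the translation factors were -0.74 in Hep3B-C and 0.12 in Huh7-C. TUFM had 536 and 3008 counts in Hep3B and Hep3B-C and 2192 and 2684 counts in Huh7 and Huh7-C. LRPPRC, which stabilises mitochondrial messenger RNAs, had 1263, 960, 847 and 1508 counts in the same order.

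Of 20 assembly factors, 7 were called higher and 3 lower in Hep3B-C, and 1 was called higher in Huh7-C, with medians of 0.78 and 0.20. That gene was MTERFD1 (MTERF3), which was called in opposite directions in the pairs, with 59, 28, 28 and 55 counts. Of 17 mitochondrial aminoacyl-tRNA synthetases, VARS2 and TARS2 were called higher in Hep3B-C and IARS2, NARS2 and RARS2 lower, with medians of 0.59 in Hep3B-C and 0.45 in Huh7-C and 0 called in Huh7-C.

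The 18 genes of mitochondrial DNA transcription and copy number had 1 called higher and 7 lower in Hep3B-C and 2 called higher and 1 lower in Huh7-C, with medians of -0.46 and 0.71. PPARGC1A, a coactivator that drives mitochondrial biogenesis, was called lower in both HCSC lines. It had 109 and 11 counts in Hep3B and Hep3B-C and 127 and 0 counts in Huh7 and Huh7-C, where 0 counts allow a level of up to 0.692 CPM. POLRMT, the mitochondrial RNA polymerase, was called higher in Hep3B-C, with 370 and 1660 counts in Hep3B and Hep3B-C and 352 and 522 counts in Huh7 and Huh7-C. TFAM, which packages mitochondrial DNA, was called lower there, with 133, 102, 57 and 65 counts. The lists thus held genes called in both directions in the Hep3B pair.

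Among lists most like the 77 genes, the nuclear-encoded respiratory chain subunits had 32 of 79 listed genes called higher in Hep3B-C and 2 lower, with a median of 0.71. In Huh7-C they had 0 of 78 called higher and 2 lower, COX7B and NDUFB1, with a median of -0.47. The cytosolic ribosomal proteins had 15 of 81 called higher in Hep3B-C and 10 lower, with a median of 0.25, and 0 of 83 called in Huh7-C, with a median of -0.24. After removal of the GC and length trends, the medians in Hep3B-C were -0.03 for the respiratory chain, -0.80 for the cytosolic ribosome and -0.11 for the mitochondrial ribosome. No difference between the lists was tested.

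**Figure D5:**
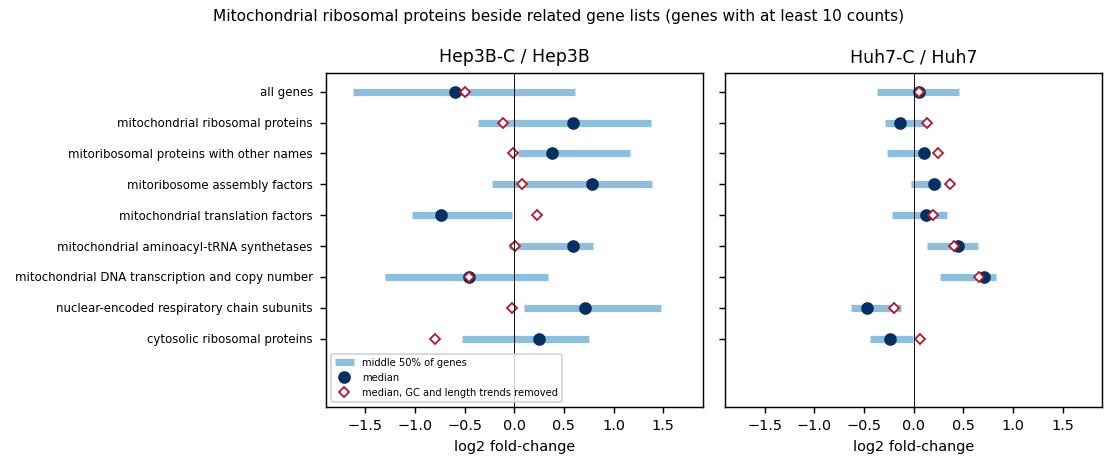
Median log2 fold-change (dots) and middle 50% of genes (bars) for the mitochondrial ribosomal proteins, related lists and all genes, in the Hep3B pair (left) and the Huh7 pair (right), with medians after removal of the GC and length trends (open diamonds). For the 77 genes the diamond in Hep3B-C lies at -0.11 and the dot at 0.59.

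Promoters were read for 68 of the 76 protein-coding genes from RefSeq (GRCh38.p14), as the 250 bases before to 50 after the gene start. They are shown for MRPL55 and MRPS12, with the largest rises in Hep3B-C, and for MRPL32 and MRPL42, with the largest falls among the protein-coding genes, to set members that moved apart beside each other. Capitals mark matches to the motif letters searched on both strands, which were CCGGAAG (ETS factors such as GABPA), AAGATGGC (YY1), CACGTG (E-box) and the palindromic core of NRF1. All sequences run 5′ to 3′ on the strand of the gene.
MRPL55, chr1:228109250-228109549, minus strand: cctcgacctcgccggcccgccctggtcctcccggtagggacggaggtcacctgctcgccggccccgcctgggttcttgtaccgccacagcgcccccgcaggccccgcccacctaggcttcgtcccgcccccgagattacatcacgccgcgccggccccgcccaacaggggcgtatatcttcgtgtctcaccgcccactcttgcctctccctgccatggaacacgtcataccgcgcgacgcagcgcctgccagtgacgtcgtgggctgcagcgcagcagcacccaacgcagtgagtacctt
MRPS12, chr19:38930694-38930993, plus strand: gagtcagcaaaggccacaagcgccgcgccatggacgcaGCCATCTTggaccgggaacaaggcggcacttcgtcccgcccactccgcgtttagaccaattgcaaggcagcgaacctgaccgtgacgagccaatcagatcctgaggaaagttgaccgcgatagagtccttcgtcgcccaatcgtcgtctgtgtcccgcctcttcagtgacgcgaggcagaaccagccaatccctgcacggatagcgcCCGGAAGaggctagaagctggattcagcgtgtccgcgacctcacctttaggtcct
MRPL32, chr7:42932126-42932425, plus strand: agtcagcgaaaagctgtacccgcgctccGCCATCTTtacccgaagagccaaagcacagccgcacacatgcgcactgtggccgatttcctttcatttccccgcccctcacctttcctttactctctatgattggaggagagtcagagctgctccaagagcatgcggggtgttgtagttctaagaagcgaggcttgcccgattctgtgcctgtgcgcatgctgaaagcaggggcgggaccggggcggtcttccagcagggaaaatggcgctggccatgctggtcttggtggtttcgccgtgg
MRPL42, chr12:93467264-93467563, plus strand: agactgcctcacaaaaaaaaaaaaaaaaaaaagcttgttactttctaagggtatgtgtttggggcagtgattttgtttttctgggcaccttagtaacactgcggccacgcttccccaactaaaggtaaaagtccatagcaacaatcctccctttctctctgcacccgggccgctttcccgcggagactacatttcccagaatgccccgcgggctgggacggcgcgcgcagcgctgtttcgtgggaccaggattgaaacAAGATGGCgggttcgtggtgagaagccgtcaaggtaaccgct

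The MRPL55 window held none of the 4 motifs, MRPS12 held 1 ETS and 1 YY1 match, and MRPL32 and MRPL42 held 1 YY1 match each. Over the 68 promoters, 41.2% held the ETS letters against 10.7% of 27305 promoters in the table, and 29.4% held the YY1 letters against 3.03%. The YY1 letters contain ATG, so a match can hold a start codon. The NRF1 core was in 10.3% against 6.29%, and the E-box was in 10.3% against 7.43%. Genes with and without the YY1 letters had median log2 fold-changes of 0.61 and 0.57 in Hep3B-C, and genes with and without the ETS letters had 0.49 and 0.63. For the NRF1 core, in 7 promoters, the medians with and without it were -0.05 and 0.62, and for the E-box, also in 7, they were 0.69 and 0.54. No difference between these groups was tested. Across the 68 genes, the GC content of the promoter had a Pearson's r of 0.40 with the fold-change in Hep3B-C and -0.21 in Huh7-C.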

How the data were processed

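Total RNA of 4 hepatoma cultures was made into standard Illumina libraries and sequenced on a Genome Analyzer II, with 1 library per line. The authors aligned reads with NextGENe to NCBI Build 36.1 and deposited raw read counts per gene with gene lengths. The version of NextGENe, the gene models and how reads that match several genes were handled are not given in the sources used here. Genes without a read in a pair were not listed, and count as 0 in the fit over all 4 libraries.

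CPM, RPKM and fold-changes were computed here from the deposited counts with Python 3.11.15 (scipy 1.17.1). The fold-change of a gene was its HCSC over its HCC share of the library, after adding 0.5 to both counts, with a Poisson SE. Each pair was tested over its whole table by the Audic-Claverie test (doubled tail, Benjamini-Hochberg). The 4 libraries were fitted in edgeR 4.0.16 (R 4.3.3; TMM, filterByExpr) and, as an alternative, DESeq2 1.42.0, with the parental line as a block, taken from the cell line names in the labels, which tie each HCSC line to its parent. Trends on log2 length and GC content were splines over genes with at least 20 counts. GC content came from the GENCODE v29 transcript nearest in length, joined by gene ID. Tests were checked on simulated counts. These were Poisson counts for the pairs, and counts with less variation than in these data for the fit over 4 libraries. Power and false calls at the variation of these data were therefore not checked.

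The gene set, the lists and the tests were chosen with earlier results of these data known. Genes were named for the 5 highest and 5 lowest fold-changes of a pair (at least 50 counts), the 5 highest and 3 lowest mean RPKM, calls alike in both pairs or by edgeR, opposite calls, or a known role.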

Additional observations from a re-analysis of the deposited data

Results flagged for a closer look

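The median of the set differed in sign between the 2 HCSC lines, while 39 of the 77 genes had the same sign in both. Of all 13917 genes listed in both pairs, 2599 were above 0 in both and 4110 below 0 in both. Several named genes differed in sign as well. Of these, only MRPL53 and MRPL3 were beyond counting error in both pairs. With the FDR alone, 9 genes in all were beyond counting error in opposite directions. Of them, 8 were higher in Hep3B-C and 1 was higher in Huh7-C, against 3.82% and 8.03% of all genes. The differences between the pairs rest on 1 library per line and were not tested. The median log2 fold-changes, 0.59 for Hep3B-C and -0.14 for Huh7-C, differed by 0.72 (Hep3B-C minus Huh7-C). The median of Huh7-C lay within 0.26 of 0, a tolerance taken from the median counting SE of a single gene. It does not measure the error of a median over the 77 genes. The log2 fold-changes of MRPL53, 0.86 and -0.76, differed by 1.62, and those of MRPL3, -0.74 and 0.49, differed by -1.23. With Huh7 as the reference of Hep3B-C, its median was -0.31, below 0 as in Huh7-C. After removal of the GC and length trends, MRPL53 had -1.03 and -0.41 and so lay below 0 in both pairs, while MRPL3 had -0.46 and 0.64.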

How the results depend on the processing

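With 1 library per line, calls within a pair carry counting error only, and the low total gene count of Hep3B limits genes such as MRPL55, with 18 counts. In Hep3B-C, 24 genes were called higher and 4 lower on the scale of total counts. These counts were 43 and 1 on the TMM scale, 45 and 1 with DESeq2 size factors, 12 and 22 after removal of the length trend, 5 and 7 after removal of both the GC and length trends, 0 and 0 at an assumed biological coefficient of variation of 0.4, and 42 and 13 with the FDR alone. With Huh7 in place of Hep3B as the reference, an alternative chosen after seeing the data, they were 5 and 10. The median of 0.59 was 1.18, 1.27, -0.28 and -0.11 under the first 4 of these and -0.31 with Huh7 as the reference. TMM moved all genes of the Hep3B pair by 0.60. Shares of all genes are not given here for DESeq2 size factors, the length trend alone or the assumed variation, nor for TMM in the Huh7 pair. Counts under those settings therefore cannot be set against all genes.

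In Huh7-C, 0 genes were called higher and 1 lower. These counts were 0 and 2 with TMM or DESeq2 scaling, 1 and 0 with the length trend or both trends removed, 0 and 0 at the assumed variation, and 7 and 14 with the FDR alone. The median of -0.14 became 0.12 with the length trend and 0.13 with both trends removed. Calls alike in both pairs, 0 in each direction, became 5 higher and 1 lower with the FDR alone. In the fit over 4 libraries, 0 of these genes were called in either direction under every alternative that kept all 4 libraries. Without the replicate block the coefficient of variation was 0.754 in place of 0.514, and 0 of all genes tested were called. With the block, calls among all genes ran from 3 higher and 3 lower on the scale of total counts to 21 and 38 with both trends removed. With so few calls among all genes, 0 among these genes says little about them. When each library was left out in turn, the median log2 fold-change ranged from -0.13 to 0.98.

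Log2 fold-changes of named genes that changed sign were, in Hep3B-C under TMM and DESeq2 scaling, 0.0505 and 0.14 for MRPL1, 0.43 and 0.52 for MRPL33, 0.11 and 0.19 for MRPL34, 0.0127 and 0.10 for MRPL35, 0.33 and 0.42 for MRPL50, 0.11 and 0.19 for MRPS14, and 0.10 and 0.18 for MRPS30. MRPL28 in Huh7-C became -0.0107 with DESeq2 size factors. With the length trend removed, MRPL45, MRPL47, MRPL53 and MRPS18C became -0.0937, -0.70, -0.28 and -0.43 in Hep3B-C. In Huh7-C, MRPL12, MRPL20, MRPL38, MRPS18A, MRPS18C, MRPS22, MRPS24 and MRPS36 became 0.22, 0.18, 0.0407, 0.22, 0.0707, 0.20, 0.20 and 0.0511. With both trends removed, MRPL19, MRPL35, MRPL50, MRPL53 and MRPS24 became 0.59, 0.41, 0.16, -1.03 and -0.15 in Hep3B-C, and MRPL12, MRPL20, MRPS18A, MRPS18C, MRPS22, MRPS24 and MRPS36 became 0.12, 0.22, 0.24, 0.0529, 0.20, 0.20 and 0.0419 in Huh7-C. The cause of these changes was not tested.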
